A study of Mus musculus with 18 samples.

Results

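Ccn4, Cemip and Pdgfb are 3 of the genes that stood lowest with YH439 in mouse hepatocyte-derived cells carrying a reintroduced aryl hydrocarbon receptor, and they were selected on the size of that fall in log2 level. They were 3 of 11149 genes tested, and 4 of their 7 array probes were kept. The values that chose them are given as a description with no test, and the tests concern the other comparisons of the same arrays.

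The aryl hydrocarbon receptor (AhR) is a transcription factor that pairs with ARNT on DNA after binding ligands such as dioxins, and in liver it is known for raising drug-metabolising enzymes. Ccn4, also named Wisp1, encodes a secreted matricellular protein of the CCN family that was first described as induced by WNT1. Cemip encodes a secreted hyaluronan-binding protein needed for the breakdown of hyaluronan, a large sugar polymer of the extracellular matrix. Pdgfb encodes the B chain of platelet-derived growth factor, which signals mainly through the receptor Pdgfrb and drives growth of mesenchymal cells such as pericytes and hepatic stellate cells.

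RNA was measured on 18 single-colour Illumina mouse BeadChips, in 6 groups of 3 arrays. Both cell lines came from AhR-/- hepatocytes (strain C57BL/6N) that had been transformed by SV40 tsA209 virus. The reconstituted line expressed HisMyc-tagged mouse AhR together with the tetracycline repressor TetR, and the AhR-null line expressed TetR alone. Cells of each line were held in suspension in 1.68% methylcellulose after trypsin, given 10 µM YH439, an AhR ligand, while attached, or given 0.1% DMSO while attached, for 8 h in every case. All groups shared culture at 34 °C with 10% serum and 100 nM dexamethasone, a glucocorticoid. The sources used here do not give whether each line was a single clone, whether an inducer was added for the tagged receptor, or whether YH439 or suspension cells also received DMSO. Nothing in the labels says that the biological triplicates of a group were separate cultures, so a p-value sets a difference against a spread between arrays that may be technical only.

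The label as hepatocytes was set against marker genes. Of 10 hepatocyte markers on the array, Krt8 and Krt18 were detected on all 18 arrays, and Alb, Apoa1, Apob, Ttr, Fgb and Cps1 were detected on none. Every array detected 9 of the 12 mesenchymal and stellate markers, Vim, Col1a1, Acta2, Pdgfra and Pdgfrb among them. Of 8 endothelial markers none was detected on all 18 arrays, and Cdh5, Tie1 and Vwf were detected on no array. Of 4 platelet markers, Itga2b was detected on all 18 arrays and Pf4 on none. The macrophage markers Csf1r and Cd14 and the bile duct markers Krt19 and Sox9 were detected on all 18 arrays, while Adgre1, Clec4f, Ptprc and Epcam were detected on none. Between 42.0% and 44.6% of 45281 probes were detected per array, and the median intensity ran between 6.03 and 11.9. Signal was dimmest on 6 arrays, those numbered replicate 1 in the reconstituted line and replicate 3 in the AhR-null line. The probe for Ahr itself was detected on 1 of 18 arrays, an AhR-null one, so it does not check the lines' labels.

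Levels below are log2 intensities after background correction and quantile normalization. Ccn4 lies on chromosome 15 (chr15:66891369-66923201), Cemip on chromosome 7 (chr7:83932857-84086693) and Pdgfb on chromosome 15 (chr15:79995865-80024614), all in assembly GRCm38.p6. Ccn4 had 2 probes, both detected on all 18 arrays, and ILMN_2492264 stood for the gene because its mean was higher. Its deposited intensity ran between 1112 and 3004, and its mean was above that of 86.6% of tested genes. The other Ccn4 probe, ILMN_2453775, ran between 175 and 364. Cemip had 3 probes, of which only ILMN_1245549, annotated to a full-length cDNA, was detected, on all 18 arrays. It was dim, with intensities between 16.9 and 87.7 and a highest detection p of 0.0310. The remaining 2 Cemip probes were detected on no array, including the one annotated to the RefSeq transcript. Pdgfb had 1 probe detected on all 18 arrays, ILMN_2618714, at intensities between 134 and 279, and 1 probe, ILMN_2726543, detected on none. Each result for Cemip and Pdgfb therefore rests on a single probe.

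RefSeq's promoter table for GRCm38.p6 held a window for Cemip, shown because YH439 acts through a receptor with a known core DNA motif. The 250 bases before the listed start site, on the minus strand at chr7:84086506-84086755, are printed 5′ to 3′. The listed start lies inside the gene as placed above, not at its outer end, so the window largely overlaps the annotated gene. The letters are lower case, with the only TATAAA match in capitals.

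Cemip promoter: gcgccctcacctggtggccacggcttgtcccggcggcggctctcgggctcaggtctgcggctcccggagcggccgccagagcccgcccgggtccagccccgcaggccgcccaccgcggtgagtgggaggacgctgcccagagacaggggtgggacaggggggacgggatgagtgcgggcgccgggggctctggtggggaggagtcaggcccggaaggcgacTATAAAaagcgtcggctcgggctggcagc

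The window had a GC content of 75.2%. The capitals lie 29 to 24 bases before the start site. TATAAA occurs in 12.4% of 32841 windows of the same length, on either strand. The AhR and ARNT core GCGTG had 0 matches on either strand, against 28.2% of all windows with at least 1. The AP-1 motif TGANTCA (6.75% of windows) and the TEAD motif GGAATG (12.6% of windows) also had 0 matches. A missing match says only that these letters are not in this window.

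In reconstituted cells, all 3 genes were lower with YH439 than with DMSO, which is what they were chosen for. Ccn4 had deposited intensities of 1315, 1886 and 1520 with YH439, against 1724, 2612 and 2274 with DMSO. After normalization its levels were 10.65, 10.62 and 10.50 with YH439, against 11.23, 11.15 and 11.02 with DMSO. Every YH439 array lay below every DMSO array, and the mean difference was -0.54 ± 0.09 (standard error of log2 differences here and below), or 68.6% of the DMSO level. Cemip, the hyaluronan gene, had 5.40, 5.35 and 5.04 with YH439, against 5.74, 5.92 and 6.00 with DMSO. The groups did not overlap, and the difference was -0.62 ± 0.17, or 64.9% of the DMSO level. Pdgfb, the growth factor gene, had 7.58, 7.51 and 7.42 with YH439, against 8.20, 8.00 and 7.98 with DMSO. Its groups did not overlap either, with a difference of -0.56 ± 0.18, or 68.0% of the DMSO level. From the lowest difference upward, Cemip ranked 4, Pdgfb 10 and Ccn4 12 of 11149 genes. Arrays did not overlap downward for 4.59% of all genes, and 0.00897% passed an adjusted p of 0.05 downward. Nothing is read from the members' counts here, since this contrast chose them.

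The size of the fall varied with the processing and the probe. For Cemip it was -0.30 with an offset of 50 after maximum-likelihood background correction and -0.99 in the authors' own processed values, where replicate 3 with YH439 lay at the authors' floor of 20. The other Ccn4 probe had 7.97, 7.60 and 7.71 with YH439, against 8.62, 7.88 and 8.03 with DMSO. These overlapped, and its difference was -0.42 ± 0.24. Between arrays of the same replicate number, Ccn4 differed by -0.58, -0.54 and -0.52, Pdgfb by -0.62, -0.49 and -0.56, and Cemip by -0.34, -0.56 and -0.97. The other Ccn4 probe differed by -0.65, -0.28 and -0.32 in these pairs. Pairs differed least for the brighter Ccn4 probe and for Pdgfb, and more for Cemip and the other Ccn4 probe. The summed level of the 11 tested mesenchymal markers was also lower, 22553 to 23487 with YH439 against 25255 to 26308 with DMSO, and its part in the result was not tested. Acta2 (-0.27) and Vim (-0.25) made up most of this sum. Col3a1 (0.29), Pdgfra (0.14), Tagln (0.12) and Postn (0.10) were higher with YH439 and the rest lower. The list median was -0.10, and none of the 11 passed. In such bulk samples, fewer cells of a type and less RNA per cell cannot be told apart.

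**Figure D1:**
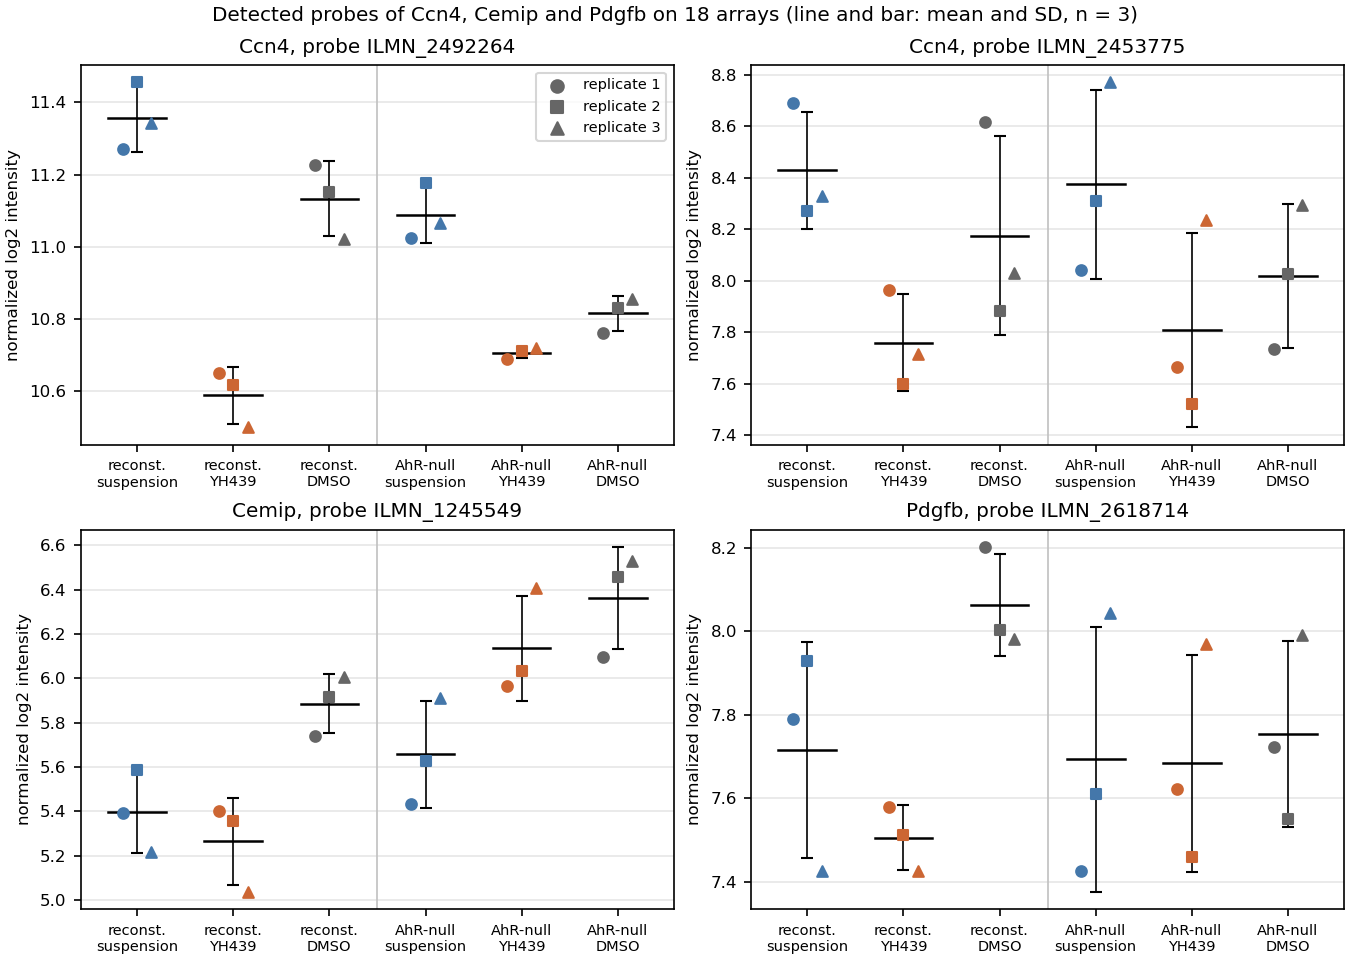
Normalized log2 level of each kept probe of Ccn4, Cemip and Pdgfb on each array (points), by line and treatment, with the group mean and SD (n = 3). Cemip is lowest with YH439 in reconstituted cells (mean 5.26) and highest with DMSO in AhR-null cells (mean 6.36).

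Without the receptor, none of the 3 genes passed the test with YH439. Ccn4 had 10.69, 10.71 and 10.72 with YH439, against 10.76, 10.83 and 10.86 with DMSO in AhR-null cells. These arrays did not overlap, as was so downward for 2.18% of all genes. The difference was -0.11 ± 0.09 (95% interval -0.30 to 0.08, limma adjusted p = 1.00, unadjusted p = 0.236). Cemip had 5.97, 6.03 and 6.41 with YH439, against 6.10, 6.46 and 6.53 with DMSO. The groups overlapped, with a difference of -0.23 ± 0.17 (95% interval -0.58 to 0.12, limma adjusted p = 1.00). Pdgfb had 7.62, 7.46 and 7.97 with YH439, against 7.72, 7.55 and 7.99 with DMSO. These overlapped almost wholly, with a difference of -0.07 ± 0.18 (95% interval -0.45 to 0.31, limma adjusted p = 1.00). The other Ccn4 probe differed by -0.21 ± 0.24 and overlapped.

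Paired by replicate number, all 3 genes were nonetheless slightly lower with YH439 in each of the 3 AhR-null pairs. Ccn4 differed by -0.07, -0.12 and -0.13, Cemip by -0.13, -0.43 and -0.12, and Pdgfb by -0.10, -0.09 and -0.02. Across all genes, 12.9% were lower in all 3 pairs. With the replicate number as a block, which the same-numbered arrays of a line allow, the adjusted p was 0.857 for Ccn4, 0.780 for Cemip and 0.933 for Pdgfb. In this comparison limma called 0 of 11149 genes (0% of them), 185 (1.66%) had an unadjusted p under 0.05, 2 were called with the block and 1 in the authors' values. The summed mesenchymal markers were 29283 to 30828 with YH439, against 30526 to 31468 with DMSO, and their part was not tested. Acta2 made up most of these sums. The list median was -0.07, against 0.0018 over all genes, and none of the 11 tested markers passed.

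The difference between the lines' YH439 responses, reconstituted minus AhR-null, is a description too, because it contains the contrast that chose the genes. It was -0.44 ± 0.13 for Ccn4, -0.40 ± 0.23 for Cemip and -0.49 ± 0.25 for Pdgfb. The other Ccn4 probe gave -0.20 ± 0.34, from -0.42 in reconstituted cells and -0.21 in AhR-null cells. As a check that YH439 acted, Aldh3a1, a detoxifying enzyme and AhR target, was 11.62, 11.74 and 11.67 with YH439 against 9.39, 9.43 and 9.35 with DMSO in reconstituted cells. It was 9.24, 9.28 and 9.70 with YH439 against 9.07, 9.26 and 9.35 with DMSO in AhR-null cells, where the groups overlapped.

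With suspension, Cemip passed the test downward in both lines, Ccn4 upward in AhR-null cells only, and Pdgfb in neither without the replicate block. In AhR-null cells, whose arrays were not part of the contrast that chose the genes, Cemip fell and Ccn4 rose. The choice was still made with earlier results of these data known. Cemip had 5.43, 5.63 and 5.91 in suspension, against 6.10, 6.46 and 6.53 with DMSO. The groups did not overlap, and Cemip fell to 61.3% of the DMSO level (-0.71 ± 0.17, limma adjusted p = 0.00593). Ccn4 had 11.02, 11.18 and 11.07 in suspension, against 10.76, 10.83 and 10.86 with DMSO. Every suspension array lay above every DMSO array, and Ccn4 rose to 121% of the DMSO level (0.27 ± 0.09, limma adjusted p = 0.0371). Pdgfb had 7.43, 7.61 and 8.04 in suspension, against 7.72, 7.55 and 7.99 with DMSO, and the groups overlapped fully. Its difference was -0.06 ± 0.18 (95% interval -0.44 to 0.32, limma adjusted p = 0.860). In this comparison 22.6% of all genes passed, 11.9% downward and 10.8% upward, while 17.2% did not overlap downward and 14.4% upward, so the 2 of 3 members that passed stand against a broad change. The rise of Ccn4 was the less firm of the 2: leaving out 1 array at a time ended it for replicates 1, 2 and 3 of AhR-null DMSO and replicates 2 and 3 of AhR-null suspension (0.23 to 0.29, adjusted p 0.0518 to 0.136), and its other probe gave 0.36 ± 0.24 (adjusted p = 0.355, range over alternatives 0.00520 to 0.355). Cemip stayed past the threshold without any 1 array (adjusted p 0.00328 to 0.0314) and of 15 alternatives missed it in 1, with the compared groups fitted alone (adjusted p = 0.0638).

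In reconstituted cells, Cemip was again lower in suspension, at 5.39, 5.59 and 5.21, against 5.74, 5.92 and 6.00 with DMSO. The groups did not overlap, and the fall was -0.49 ± 0.17 (limma adjusted p = 0.0418). Without replicate 2 or 3 of reconstituted DMSO, or replicate 1 or 3 of reconstituted suspension, its adjusted p was 0.0958 to 0.164, with values of -0.49 to -0.40. In all it missed the threshold in 8 of 15 alternatives, the other 4 being changes of background correction, scaling or filter (-0.49 to -0.24, adjusted p 0.0580 to 0.111). Ccn4 had 11.27, 11.46 and 11.34 in suspension, against 11.23, 11.15 and 11.02 with DMSO. The suspension arrays all lay above the DMSO arrays, one of them narrowly, and the difference was 0.22 ± 0.09 (limma adjusted p = 0.0816). Pdgfb had 7.79, 7.93 and 7.43 in suspension, against 8.20, 8.00 and 7.98 with DMSO. Its arrays did not overlap, with a difference of -0.35 ± 0.18 (limma adjusted p = 0.182). With the replicate block, Ccn4 passed upward (adjusted p = 0.0151, range over alternatives 0.0151 to 0.537) and Pdgfb downward (adjusted p = 0.0111, range over alternatives 0.0111 to 0.539). Here 24.1% of all genes passed, 13.4% downward and 10.7% upward, while 26.6% did not overlap downward and 19.2% upward. These DMSO arrays are the ones YH439 was set against, so the comparisons share their controls. Genes chosen for a fall from these arrays may have DMSO values that lie too high. Their suspension differences here are not independent of that choice and may lie too low. Side by side, Cemip differed by -0.62 with YH439 and -0.49 in suspension, Pdgfb by -0.56 and -0.35, and Ccn4 by -0.54 and 0.22.

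No difference between the lines' suspension responses passed for any of the 3 genes. The difference of responses, reconstituted minus AhR-null, was -0.05 ± 0.13 for Ccn4 (95% interval -0.32 to 0.22), 0.22 ± 0.23 for Cemip (-0.28 to 0.71) and -0.29 ± 0.25 for Pdgfb (-0.82 to 0.25). The limma adjusted p was 1.00 for each, and 0.00897% of genes passed. The unadjusted p was 0.700 for Ccn4, 0.370 for Cemip and 0.272 for Pdgfb. These differences also subtract the reconstituted DMSO arrays that helped choose the genes, so they too may lie too low. Other cell type markers moved with suspension in both lines. The summed level of the 4 tested hepatocyte markers was 943 to 1373 in suspension against 409 to 562 with DMSO in reconstituted cells, and 902 to 1124 against 512 to 584 in AhR-null cells. Krt8 and Krt18 carried these sums and rose in both lines, while Hnf4a fell in reconstituted cells (-0.44, limma adjusted p = 0.0350), which makes 2 higher and 1 lower there and 2 higher in AhR-null cells. Hnf4a was near background, detected on 10 of 18 arrays, with group means between 4.76 and 5.23. The summed level of the 3 tested bile duct markers was 5626 to 6558 in suspension against 1829 to 2279 with DMSO in reconstituted cells, and 4129 to 7282 against 1584 to 2249 in AhR-null cells. Sox9 made up most of these sums and was the 1 of 3 that rose in each line, while Krt19 differed by 0.48 and 0.23 and Krt7 by -0.23 and -0.14 in reconstituted and AhR-null cells without passing. The 11 mesenchymal markers had 2 higher and 2 lower in each line, and their sums were 26515 to 28397 against 25255 to 26308 in reconstituted cells and 28944 to 30309 against 30526 to 31468 in AhR-null cells. Their part in the results was not tested.

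**Figure D2:**
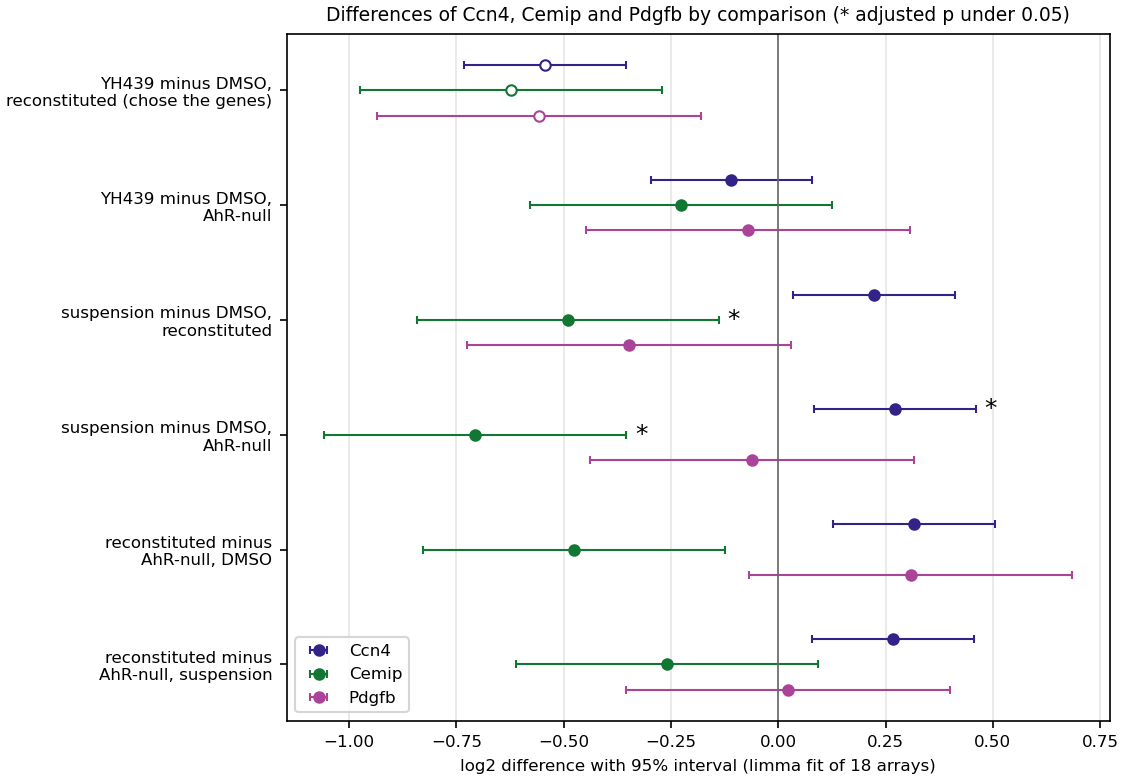
Fitted log2 differences of Ccn4, Cemip and Pdgfb with 95% intervals (n = 3 arrays a group), for the treatments and the lines. Open circles mark the contrast that chose the genes and stars an adjusted p under 0.05. The intervals of Cemip in suspension lie below 0 in both lines, and those of all 3 genes with YH439 in AhR-null cells span 0.

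Between the lines, no member passed the test. The reconstituted DMSO arrays also belong to the contrast that chose the genes, so the values under DMSO are not independent of that choice and may lie too high in reconstituted cells. Under DMSO, Ccn4 averaged 11.13 ± 0.10 in reconstituted cells and 10.82 ± 0.05 in AhR-null cells (SD, n = 3 each). The arrays did not overlap, and the difference was 0.32 ± 0.09 (limma adjusted p = 0.182, unadjusted p = 0.00265). Cemip averaged 5.89 ± 0.14 in reconstituted cells and 6.36 ± 0.23 in AhR-null cells, also without overlap, a difference of -0.48 ± 0.17 (limma adjusted p = 0.373). Pdgfb averaged 8.06 ± 0.12 in reconstituted cells and 7.75 ± 0.22 in AhR-null cells, with overlap, a difference of 0.31 ± 0.18 (limma adjusted p = 0.594). Of all genes, 0.547% passed in this comparison, while 7.56% did not overlap upward and 5.61% downward. In suspension, where 1.8% of genes passed, the differences were 0.27 ± 0.09 for Ccn4 (limma adjusted p = 0.171), -0.26 ± 0.17 for Cemip (0.594) and 0.02 ± 0.18 for Pdgfb (0.975). Without the 6 dimmest arrays Ccn4 passed in both (0.29, adjusted p = 0.0430, and 0.30, adjusted p = 0.0367), a setting that called 2725 genes under DMSO against 61 with all arrays. Its adjusted p otherwise reached at least 0.05 under every alternative run.

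Ordered by mean level, the 6 groups of Ccn4 ran reconstituted suspension 11.36, reconstituted DMSO 11.13, AhR-null suspension 11.09, AhR-null DMSO 10.82, AhR-null YH439 10.71 and reconstituted YH439 10.59. Only reconstituted DMSO and AhR-null suspension overlapped among these neighbours. Of all genes, 19.2% did not overlap upward in suspension in reconstituted cells and 14.4% in AhR-null cells. With YH439 in AhR-null cells 2.18% did not overlap downward. The share was not counted for the 2 YH439 groups. The other Ccn4 probe had AhR-null suspension above reconstituted DMSO, and each of its neighbouring pairs overlapped. Cemip ran AhR-null DMSO 6.36, AhR-null YH439 6.14, reconstituted DMSO 5.89, AhR-null suspension 5.66, reconstituted suspension 5.40 and reconstituted YH439 5.26, and each neighbouring pair overlapped. Pdgfb ran reconstituted DMSO 8.06, AhR-null DMSO 7.75, reconstituted suspension 7.72, AhR-null suspension 7.69, AhR-null YH439 7.68 and reconstituted YH439 7.51, again with each neighbouring pair overlapping. All 3 genes were thus lowest with YH439 in reconstituted cells, which their choice fixes in part, but the group at the top differed for each.

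Over the 18 arrays, Pearson's r was -0.16 between Ccn4 and Cemip, 0.40 between Ccn4 and Pdgfb and 0.45 between Cemip and Pdgfb. The points share 6 groups and array intensity, and Pdgfb had r = -0.64 with the array's median intensity, against -0.09 for Cemip and -0.06 for Ccn4. Every r here also includes the reconstituted YH439 and DMSO arrays that chose the genes. A shared fall there is thus partly built in, for the members and for the genes most like them. The 2 Ccn4 probes had r = 0.69 with each other. Among 10829 other named genes, the patterns most like Ccn4 were those of Crct1 (r = 0.91), Ang2 (0.89), Aif1l (0.89) and Arv1 (0.85). Crct1 differed by -0.48 with YH439 in reconstituted cells and by -0.45 in AhR-null cells, so in AhR-null cells it lay farther from 0 than Ccn4. With YH439 in reconstituted and AhR-null cells, Ang2 differed by -0.35 and -0.13, Aif1l by -0.27 and -0.25 and Arv1 by -0.15 and -0.0011. Most like Cemip were Acta2 (r = 0.88), the smooth muscle actin of contractile mesenchymal cells, Gulp1 (0.87), Rybp (0.86) and Cntnap2 (0.86). Cntnap2 differed by -0.67 with YH439 in reconstituted cells, by -0.34 with YH439 in AhR-null cells and by -1.46 between the lines under DMSO. Acta2, Gulp1 and Rybp differed less with YH439 in reconstituted cells, by -0.27, -0.24 and -0.18. In AhR-null cells they differed by -0.07, -0.10 and 0.09. Most like Pdgfb were Pdlim7 (r = 0.87), Galnt18 (0.84), Enc1 (0.83) and Gtf3c3 (0.83). Galnt18 differed by -0.64 with YH439 in reconstituted cells and by -0.11 in AhR-null cells. Pdlim7, Enc1 and Gtf3c3 differed by -0.30, -0.43 and -0.22 with YH439 in reconstituted cells. In AhR-null cells they differed by -0.07, 0.0049 and -0.03.

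The relatives of each gene were read for the same comparisons. In the CCN family, 5 of 6 genes were tested. With YH439 against DMSO, the matricellular genes Ccn1 and Ccn2 differed by -0.27 and -0.14 in reconstituted cells and by -0.25 and -0.10 in AhR-null cells. Ccn3 differed by 0.30 in reconstituted cells and by -0.02 in AhR-null cells, and Ccn5 by 0.25 and -0.19. The family median was -0.14 in reconstituted cells, against -0.0046 over all genes, and -0.11 in AhR-null cells, against 0.0018 over all genes, where none of the 5 passed. The median in reconstituted cells includes Ccn4, which was chosen on this contrast. Apart from it, Ccn1 and Ccn2 were lower there and Ccn3 and Ccn5 higher, so no shared fall of the family is read from it. In suspension, none passed in reconstituted cells, while in AhR-null cells Ccn4 rose and Ccn2, also called connective tissue growth factor, fell by 0.51 (limma adjusted p = 0.0241). That fall of Ccn2 missed the threshold without replicate 1 or 3 of AhR-null DMSO or replicate 1 or 2 of AhR-null suspension (adjusted p 0.0584 to 0.111). With the replicate block, 2 rose in reconstituted cells, and 2 rose and 1 fell in AhR-null cells. Ccn5 was lower in the reconstituted than in the AhR-null line, by -0.85 under DMSO (limma adjusted p = 0.00291) and by -0.75 in suspension (limma adjusted p = 0.00367).

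Of 11 genes for PDGF ligands, receptors and processing, 10 were tested. The other ligands Pdgfa and Pdgfc differed by -0.07 and -0.28 with YH439 in reconstituted cells and by -0.20 and -0.15 in AhR-null cells. No comparison with Pdgfb is drawn from this, since only Pdgfb was selected on its fall there. The list median with YH439 was -0.21 in reconstituted cells and -0.05 in AhR-null cells, where none of the 10 passed. The median in reconstituted cells includes Pdgfb, which was chosen on this contrast. In suspension, Pdgfrb, the main receptor for PDGF-B, rose by 0.55 in reconstituted cells (limma adjusted p = 0.00298) and by 0.96 in AhR-null cells (3.07e-05), while Pdgfb itself did not pass. The co-receptor Nrp1 fell by 0.52 in reconstituted cells (0.000290) and by 0.47 in AhR-null cells (0.000745). Furin, a protease that cleaves growth factor precursors, fell by 0.39 in reconstituted cells (0.00580) and by 0.49 in AhR-null cells (0.00142). In all, 1 rose and 3 fell in reconstituted cells, and 1 rose and 2 fell in AhR-null cells. With the replicate block the counts were 2 and 5 in reconstituted cells and 2 and 4 in AhR-null cells. The list median was -0.20 in reconstituted cells and -0.08 in AhR-null cells, against -0.04 over all genes in each. Pdgfra, the other PDGF receptor, was lower in the reconstituted than in the AhR-null line, by -0.79 under DMSO (limma adjusted p = 0.00165) and by -0.78 in suspension (0.000838).

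For hyaluronan synthesis, breakdown and binding, 11 of 19 genes were tested. With YH439 the list median was -0.02 in reconstituted cells, against -0.0046 over all genes, and it includes Cemip, which was chosen on this contrast. Cemip2, whose product is a related hyaluronan-degrading protein, differed by -0.04 in reconstituted cells. Vcan, on the same list, differed most there, by 0.97 and so opposite to Cemip, and by 0.22 in AhR-null cells. In AhR-null cells none of the 11 passed with YH439. In suspension, the synthase Has2 fell by 0.96 in reconstituted cells (limma adjusted p = 0.000132) and by 1.42 in AhR-null cells (3.48e-06). Hyal1, a lysosomal hyaluronidase, rose by 1.86 in reconstituted cells (4.41e-06) and by 1.79 in AhR-null cells (7.55e-06). Stab1, a scavenger receptor, fell by 0.57 in reconstituted cells (0.000497) and by 0.53 in AhR-null cells (0.00102), and Cd44, the hyaluronan receptor, fell by 0.42 in AhR-null cells (0.0198). The fall of Cd44 missed the threshold without replicate 3 of AhR-null DMSO or replicate 2 of AhR-null suspension (adjusted p 0.0815 and 0.101). Cemip thus fell alongside the synthase and opposite to Hyal1. In all, 1 rose and 3 fell in reconstituted cells, and 1 rose and 4 fell in AhR-null cells. The list median was -0.07 in reconstituted cells and -0.40 in AhR-null cells, against -0.04 over all genes in each. Between the lines under DMSO, Has2 was lower in the reconstituted line, by -0.74 (limma adjusted p = 0.0220). It missed the threshold in 8 of 15 alternatives.

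**Figure D3:**
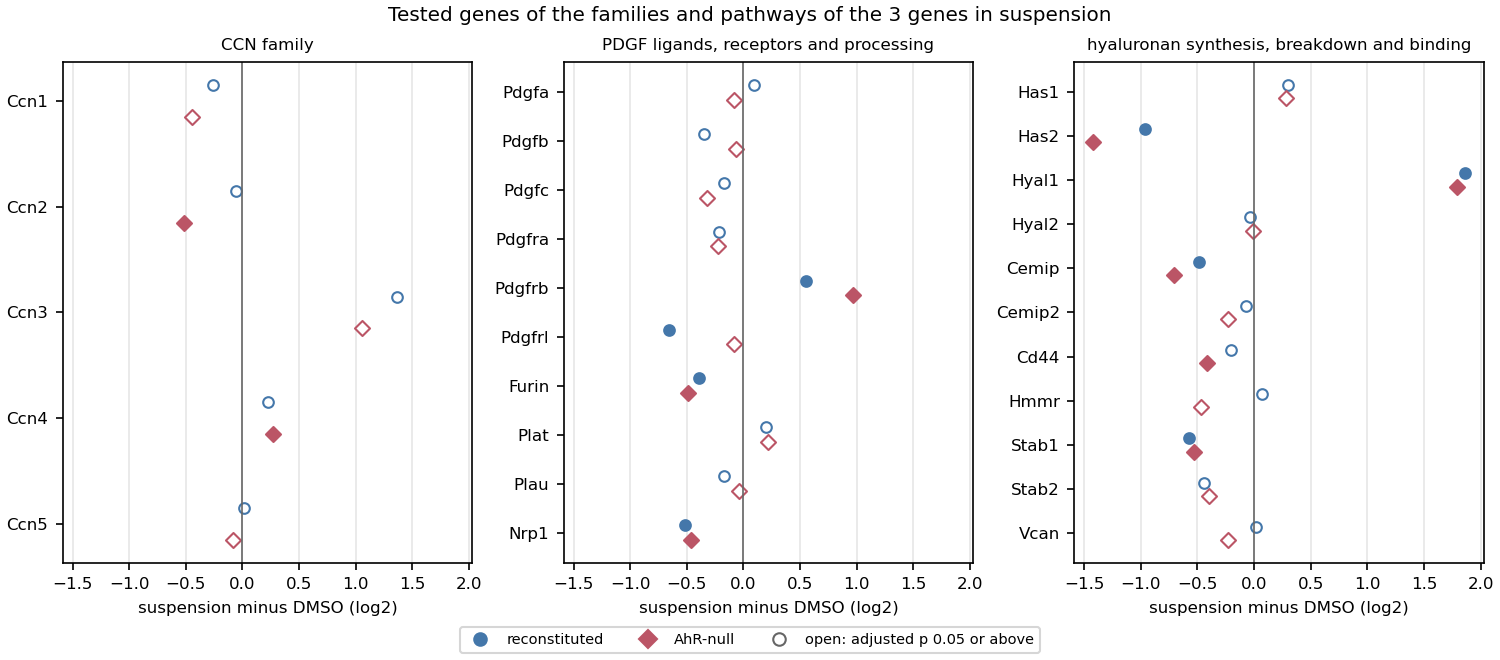
Log2 difference, suspension minus DMSO, for each tested gene of the CCN family, of PDGF signalling and of hyaluronan handling, in reconstituted (circles) and AhR-null cells (diamonds), filled where the adjusted p was under 0.05. Hyal1 lies near 1.8 and Has2 below 0 in both lines, with Cemip on the side of Has2.

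Wider lists set Ccn4 and Pdgfb beside genes of like role. Of 22 WNT and beta-catenin targets, to which Ccn4 belongs, 12 were tested. In suspension 2 rose and 2 fell in reconstituted cells, and 3 rose and 2 fell in AhR-null cells, Ccn4 being 1 of the 3. The transcription factor Sox9 rose by 1.62 in reconstituted cells (limma adjusted p = 6.19e-05) and by 1.56 in AhR-null cells (9.28e-05). The cyclin Ccnd1 fell by 0.64 in reconstituted cells (0.000700) and by 0.96 in AhR-null cells (1.91e-05). Myc, a growth regulator, rose by 0.90 in reconstituted cells (0.00451) and by 0.86 in AhR-null cells (0.00606). Notum, a secreted WNT inhibitor, fell by 0.45 in reconstituted cells (0.0219) and by 0.67 in AhR-null cells (0.00190). Its fall in reconstituted cells missed the threshold without replicate 2 of reconstituted DMSO or replicate 3 of reconstituted suspension (adjusted p 0.0968 and 0.120). The list median was 0.10 in reconstituted cells and 0.07 in AhR-null cells, against -0.04 over all genes in each. Between the lines in suspension, Ccnd1 was higher in the reconstituted line, by 0.61 (limma adjusted p = 0.00875). It missed the threshold in 4 of 15 alternatives.

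Of 27 growth factor ligands of receptor tyrosine kinases, which include Pdgfb, 20 were tested, and 6 rose and 3 fell in suspension in each line. The angiogenic ligand Vegfa rose by 2.35 in reconstituted cells (limma adjusted p = 7.42e-10) and by 2.33 in AhR-null cells (8.38e-10). Vegfc, a lymphatic growth factor, rose by 0.91 in reconstituted cells (0.000382) and by 0.96 in AhR-null cells (0.000268). Gas6, a ligand of TAM receptors, fell by 0.70 in reconstituted cells (0.000332) and by 0.55 in AhR-null cells (0.00247). Csf1, the macrophage growth factor, fell by 1.15 in reconstituted cells (0.000885) and by 1.39 in AhR-null cells (0.000195). Pdgfb passed in neither line without the block. None of the 20 ligands or the 12 WNT targets passed with YH439 in AhR-null cells. The ligands' median in suspension was 0.11 in reconstituted cells and 0.14 in AhR-null cells, against -0.04 over all genes in each. Gas6 was lower in the reconstituted than in the AhR-null line, by -0.60 under DMSO (limma adjusted p = 0.0210) and by -0.75 in suspension (0.00167). In suspension Vegfd (-0.60, 0.0439) and Igf2 (-0.67, 0.0476) were lower too. Gas6 under DMSO missed the threshold in 7 of 15 alternatives, Vegfd in 8 of 15 and Igf2 in 12 of 14.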

How the data were processed

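Per the submitters' processing notes, the arrays were read with BeadStudio (no version stated). The deposited table holds background-subtracted intensity per probe with a detection p-value, and the authors' processed intensity has a floor of 20, with a scaling between arrays that stays unknown. From the deposited intensity, limma 3.58.1 in R 4.3.3 (neqc, offset 16) gave log2 levels. Probes with detection p under 0.05 on at least 3 of 18 arrays were kept (22203 of 45281), and the brightest kept probe stood for its gene (11149 of 19057 named genes). Group means were fitted over all 18 arrays (lmFit, eBayes), two-sided, with Benjamini-Hochberg adjustment over all genes and a threshold of 0.05. The members and lists were chosen with earlier results of these data known. Named genes were the members, the 4 genes most like each (clone names passed over), and up to 3 called genes of each list and comparison with the smallest p. Those called in suspension were given in both lines. The other CCN and PDGF genes, Cemip2 and Vcan named for YH439 were chosen after their values were seen. Within a line, deviations of arrays sharing a number correlated (0.174 to 0.851), so the numbers pair arrays within a line. Between lines they ran from -0.689 to 0.102 and do not. The fit of group means leaves the pairing within a line out, and the replicate block, run as an alternative, includes it. Array number and signal over background limit the precision. Tests were checked on simulated data, the fit of group means with independent noise only and the replicate block with paired noise. The check thus does not cover the fit of group means under paired noise.

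Alternatives were 2 other background corrections, median scaling, the authors' values, 2 detection filters, only the compared groups, a replicate block, leaving out the 6 dimmest arrays or each array, and the other Ccn4 probe.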

Additional observations from a re-analysis of the deposited data

How the results depend on the processing

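Of 404 alternative values for the 3 genes, 362 were counted as the same. For tested comparisons this meant the same direction and side of the threshold. For the YH439 comparisons given without a test, it meant the same direction and a shift smaller than the fitted SD between arrays. There, 7 values kept direction but moved farther. Of 612 values for the named list genes, 550 kept direction and side of the threshold and 62 lost a call, none with a change of direction. With only the compared groups, Nrp1 (adjusted p = 0.0552), Furin (0.0627), Ccn2 (0.108), Cd44 (0.134), Myc (0.0787) and Gas6 (0.0789) in suspended AhR-null cells, and between the lines Ccn5 (0.108 under DMSO, 0.140 in suspension) and Pdgfra (0.0821 and 0.0922), missed the threshold. With median scaling Notum (0.0578) and Cd44 (0.0504) missed it in suspended AhR-null cells and Notum (0.122) in reconstituted cells, where it also did with maximum likelihood (0.0616). For Cemip with YH439 in reconstituted cells, an offset of 50 gave -0.30 (maximum likelihood) or -0.37 (no further correction) and the authors' values gave -0.99, and the difference between the lines' responses was -0.16 (maximum likelihood) or -0.60 (authors' values). The other Ccn4 probe gave -0.42 and -0.20 for these. In suspended reconstituted cells, Ccn4 passed with maximum likelihood (0.22, adjusted p = 0.0456), the authors' values (0.29, 0.0215), the replicate block (0.22, 0.0151) and without the 6 dimmest arrays (0.31, 0.0211), and Pdgfb with the replicate block (-0.35, 0.0111). Cemip missed the threshold there with maximum likelihood (-0.24, 0.0824), no further correction (-0.29, 0.0697), median scaling (-0.47, 0.111) and no detection filter (-0.49, 0.0580), and ran from -0.58 to -0.40 without 1 array. In suspended AhR-null cells, Ccn4 missed it with median scaling (0.22, 0.175), only the compared groups (0.27, 0.203) and its other probe (0.36, 0.355), and ran from 0.23 to 0.30 without 1 array, and Cemip missed it with only the compared groups (-0.71, 0.0638). The replicate block changed no other call of a member. Between the lines, Ccn4 passed without the 6 dimmest arrays under DMSO (0.29) and in suspension (0.30).

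Values that changed sign were all of differences that had not passed: Pdgfb with YH439 in AhR-null cells (-0.21 to 0.048 without 1 array; 0.048 without AhR-null DMSO replicate 3 and 0.041 without AhR-null YH439 replicate 2), Pdgfb in suspended AhR-null cells (0.055 in the authors' values; -0.24 to 0.072 without 1 array), Pdgfb between the lines in suspension (-0.13 in the authors' values; -0.11 to 0.20 without 1 array) and the Ccn4 difference of suspension responses (0.0094 without the 6 dimmest arrays). The causes were not tested.

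Counts of called genes moved by over 1.5 times: with YH439 in reconstituted cells 15 became 39 (authors' values), 96 (replicate block) and 32 (without the dimmest arrays). In suspension 2692 became 5430 (block) and 4302 (without the dimmest) in reconstituted cells, and 2525 became 5260, 4147 and, with only the compared groups, 869 in AhR-null cells. Between the lines under DMSO, 61 became 7 (only the compared groups), 130 (authors' values), 2725 (without the dimmest) and 26 to 77 without 1 array. In suspension 201 became 18, 427, 2863, 120 (median scaling) and 87 to 265 without 1 array. With YH439 in AhR-null cells 0 became 1 (authors' values) and 2 (block). For the difference between the lines' YH439 responses, 3 became 18 (block), 5 (authors' values), 5 (without the dimmest) and 1 (only the compared groups). Without 1 array this count ran from 1 to 4. For the suspension responses, 1 became 19 (block), 9 (authors' values), 4 (without the dimmest) and 0 (median scaling, only the compared groups). Without 1 array that count ran from 0 to 5.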
